A study of Mus musculus with 12 samples.

Results

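The regions described here are the DNase I hypersensitive sites (DHSs, places where chromatin is open enough for the enzyme DNase I to cut) that appeared late in early T cell development, in DN2b cells alone. They were chosen by their peaks. The peaks of 12 DNase-seq libraries on the autosomes and the X chromosome were merged into 170207 consensus DHSs, and the 3169 with a peak in both DN2b libraries and in none of the other 10 were kept. These DN2b-only DHSs are 1.86% of all consensus DHSs. Because the presence or absence of a peak in each library selected them, their number and their scores are given as a description and carry no test.

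DNase-seq was performed on mouse haematopoietic cells to follow DNA accessibility from the progenitor to the early T cell precursor. Marrow cells lacking lineage markers and carrying SCA1 and KIT (LSK cells) of C57BL/6J mice were profiled fresh (3 libraries). LSK cells grown on the immobilized Notch ligand Delta1 gave DN1 cells (KIT++CD44+CD25-, 2 libraries, cultured without IL-7), DN2a cells (KIT++CD44+CD25+, 2 libraries) and DN2b cells (KIT+CD44loCD25+, 2 libraries), the DN2 cultures having received IL-7. The IgG group (3 libraries) is LSK cells cultured on human IgG1 with no Notch ligand. Replicates came from independent LSK isolates, and which DN libraries share an isolate was not given in the labels. Stage and IL-7 cannot be told apart between the DN1 and DN2b libraries. Replicate numbers below follow the order of deposition and only name a library.

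Early T cell precursors pass from DN1 through DN2a to DN2b under Notch signalling, and DN2b is the stage at which they become committed to the T lineage and begin to prepare their antigen receptor genes for rearrangement. The E proteins, which bind E-box sequences, and the factors TCF1, GATA3, RUNX1 and BCL11B are known to act in this step. STAT5, which responds to IL-7, is known to support the survival and growth of these cells.

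Members of 2 kinds carry most of what follows, and their sequences are shown to make the motif counts concrete. The first 6 rank 2 to 7 by the lower of their 2 DN2b score percentiles. Each is 200 bp centred on the DHS, read 5′ to 3′ on the plus strand of GRCm38 (the assembly of mm10) from RefSeq, with capitals marking every match to any of the 15 motifs searched. These windows are named by the nearest coding gene: Stat3 chr11:100939772-100939971 (upstream, in the promoter), Sfi1 chr11:3144982-3145181 (intron of Sfi1), A3galt2 chr4:128735312-128735511 (intron of Phc2), Junb chr8:84982572-84982771 (between genes), Gm10282 chr8:72279222-72279421 (between genes) and Fam107b chr2:3717982-3718181 (intron of Fam107b).
Stat3: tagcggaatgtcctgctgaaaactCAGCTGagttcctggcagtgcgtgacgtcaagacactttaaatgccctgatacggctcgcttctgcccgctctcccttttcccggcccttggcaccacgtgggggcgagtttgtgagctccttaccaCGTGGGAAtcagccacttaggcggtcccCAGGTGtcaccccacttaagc
Sfi1: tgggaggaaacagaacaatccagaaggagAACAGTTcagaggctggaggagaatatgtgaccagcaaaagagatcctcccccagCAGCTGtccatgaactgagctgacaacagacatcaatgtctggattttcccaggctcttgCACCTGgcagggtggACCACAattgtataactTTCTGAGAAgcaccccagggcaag
A3galt2: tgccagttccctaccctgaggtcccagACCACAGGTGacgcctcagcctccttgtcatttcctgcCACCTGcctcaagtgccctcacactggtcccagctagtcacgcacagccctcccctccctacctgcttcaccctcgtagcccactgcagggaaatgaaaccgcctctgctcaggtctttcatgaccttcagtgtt
Junb: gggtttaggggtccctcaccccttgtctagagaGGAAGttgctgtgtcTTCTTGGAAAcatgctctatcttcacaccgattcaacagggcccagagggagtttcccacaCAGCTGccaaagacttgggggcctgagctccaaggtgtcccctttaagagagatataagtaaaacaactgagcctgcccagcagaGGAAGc
Gm10282: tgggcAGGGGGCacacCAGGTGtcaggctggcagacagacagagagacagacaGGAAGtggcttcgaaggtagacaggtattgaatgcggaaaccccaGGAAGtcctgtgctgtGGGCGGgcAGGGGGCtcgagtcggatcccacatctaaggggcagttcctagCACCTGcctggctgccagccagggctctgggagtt
Fam107b: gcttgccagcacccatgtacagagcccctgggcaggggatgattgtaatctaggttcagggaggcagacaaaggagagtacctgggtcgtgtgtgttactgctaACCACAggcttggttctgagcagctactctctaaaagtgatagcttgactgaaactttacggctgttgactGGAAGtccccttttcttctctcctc

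The next 4 are the highest members within 50 kb of a gene of the T lineage lists: Thy1 chr9:44022192-44022391, Ccr7 chr11:99115972-99116171, Il2ra chr2:11635122-11635321 and Ctla4 chr1:60920572-60920771. All 4 lie between genes, and the nearest coding gene is the list gene itself except for Ccr7, where it is Tns4.
Thy1: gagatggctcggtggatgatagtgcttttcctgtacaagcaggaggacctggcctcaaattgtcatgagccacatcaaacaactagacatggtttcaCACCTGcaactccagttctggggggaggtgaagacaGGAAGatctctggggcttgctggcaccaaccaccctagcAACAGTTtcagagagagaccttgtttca
Ccr7: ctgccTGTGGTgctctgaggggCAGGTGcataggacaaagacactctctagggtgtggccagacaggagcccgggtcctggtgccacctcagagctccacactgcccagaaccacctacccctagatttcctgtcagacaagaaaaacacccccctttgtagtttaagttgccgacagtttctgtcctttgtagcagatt
Il2ra: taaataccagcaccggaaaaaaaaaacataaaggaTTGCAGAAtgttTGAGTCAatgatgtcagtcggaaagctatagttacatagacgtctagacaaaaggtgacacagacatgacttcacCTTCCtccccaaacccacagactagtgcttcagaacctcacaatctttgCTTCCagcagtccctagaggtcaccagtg
Ctla4: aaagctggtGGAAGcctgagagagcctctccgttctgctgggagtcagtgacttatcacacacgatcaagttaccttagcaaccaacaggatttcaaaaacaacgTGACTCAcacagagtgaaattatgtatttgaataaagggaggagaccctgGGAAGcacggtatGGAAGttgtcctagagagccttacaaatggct

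The 10 windows held between 2 and 5 of the 15 motif words. The E-box word CACCTG was present, on either strand, in Stat3, Sfi1, A3galt2, Gm10282, Thy1 and Ccr7, and not found in Junb, Fam107b, Il2ra and Ctla4. Il2ra and Ctla4 held the AP-1 word TGANTCA and the ETS core GGAAG. Repeats cover 62.5% of the Thy1 window and 18% or less of the others. In the A3galt2 window the RUNX and E-box words overlap, and in the Junb window the STAT and NFAT words overlap.

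Across all members the E-box CACCTG was the word whose share differed most, in percentage points, from that over all DHSs. It was present in the central 200 bp of 37.9% of DN2b-only DHSs (95% Wilson interval 36.2 to 39.6) and of 16.2% of all consensus DHSs, 2.34 times the share. This word is bound by E proteins such as E2A and HEB, and also by zinc-finger factors such as ZEB1. The share was 10.2% in the 3014 DHSs found in both DN1 libraries only and 29.0% in the 1291 found in all 4 DN2 libraries and nowhere else. The other E-box word, CAGCTG, was present in 23.4% of members, 14.4% of all DHSs and 22.6% (20.4 to 24.98) of those of all 4 DN2 libraries only. At least 1 of the 2 E-box words was present in 51.8% of members, 27.9% of all DHSs and 44.2% of those of all 4 DN2 libraries only. The rule did not use sequence, but DHSs are not replicates, so these shares carry no test.

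Words of other factors known from early T cells were also more frequent in members than in all DHSs, but not more than in DHSs shared by all DN2 libraries. TGTGGT (RUNX) was in 36.5% of members and 26.9% of all DHSs, with 49.7% in the DHSs of all 4 DN2 libraries, 40.1% in DN1-only and 39.1% in DN2a-only DHSs. CTTTGA (TCF/LEF, the word of TCF1) was in 21.8% and 14.5%, with 29.8% in those of all 4 DN2 libraries.

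The word bound by STAT factors, TTCNNNGAA, was in 12.8% of members and 6.44% of all DHSs, with 21.2% in those of all 4 DN2 libraries. Without DN2b replicate 1 it was 8.49% of members against 6.43%. The GATA word AGATAA was in 14.04% and 10.7%, with 20.5%. TGGAAA (NFAT) was in 19.4% and 16.7%, with 21.5%. For the RUNX, TCF/LEF, STAT, GATA and NFAT words the order was therefore DHSs of all 4 DN2 libraries, then DN2b-only, then all DHSs, and for CACCTG the first 2 changed places. Without DN2b replicate 1, members also stood closer to all DHSs for RUNX (28.3% against 26.9%), CAGCTG (16.7% against 14.4%) and GATA (11.9% against 10.7%). TCF/LEF then stood at 17.5% against 14.4% and NFAT at 18.4% against 16.7%.

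The other 8 words had lower shares in members than over all DHSs, 4 of them not under every alternative. GGAAG (ETS core) was in 58.5% of members, 63.9% of all DHSs and 80.2% of DHSs found in DN1 only. The myeloid-associated C/EBP word TTGCNNAA was in 6.18% of members against 10.04%. The AP-1 word was in 7.98% against 9.40%, the CTCF core AGGGGGC in 4.86% against 6.18% and the GC box GGGCGG in 11.2% against 12.6%. AACNGTT (Myb) was in 3.57% against 3.75%. The longer ETS word CCGGAAGT, which contains the ETS core, was in 0.442% against 1.06%, and CGTGGGAA (RBPJ, the DNA-binding partner of Notch) in 0.379% against 0.442%. The members' intervals for Myb (2.97 to 4.27) and RBPJ (0.217 to 0.661, from 12 members) include the share over all DHSs. All words were searched on both strands as exact letters, overlaps allowed. The window that holds each word is described, and no binding was measured. The direction changed in some of the 21 alternatives for RBPJ (kept in 16), Myb (18), AP-1 and the GC box (20 each). With lists of equal length RBPJ stood at 0.703% of members against 0.469% and Myb at 4.77% against 3.75%. Mean GC content was 50.9 ± 8.37% (SD) in members and 50.1 ± 9.06% over all DHSs. In a comparison added after seeing the data, among members and DHSs over 2.5 kb from a coding start, the CACCTG share was 39.5% against 16.5%. The GC box there stood at 6.26% against 6.24%.

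The E-box share was higher among members with higher scores. With the lower of the 2 DN2b percentiles under 25, 32.6% of 1440 members held CACCTG. The share was 41.3% of 1262 members from 25 to 50, 43.3% of 434 members from 50 to 75, and 23 of 33 members (69.7%, interval 52.7 to 82.6) at 75 or more. DHSs with a peak in both DN2b libraries and at least 1 other library, divided in the same way, held it in 17.6%, 19.4%, 19.5% and 15.7%. RUNX showed no such order among members, at 36.4%, 37.3%, 35.02% and 33.3%. STAT was at 12.6%, 12.2% and 14.5% in the lower 3 classes and at 27.3% of the 33 highest, with an interval from 15.1 to 44.2.

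**Figure D1:**
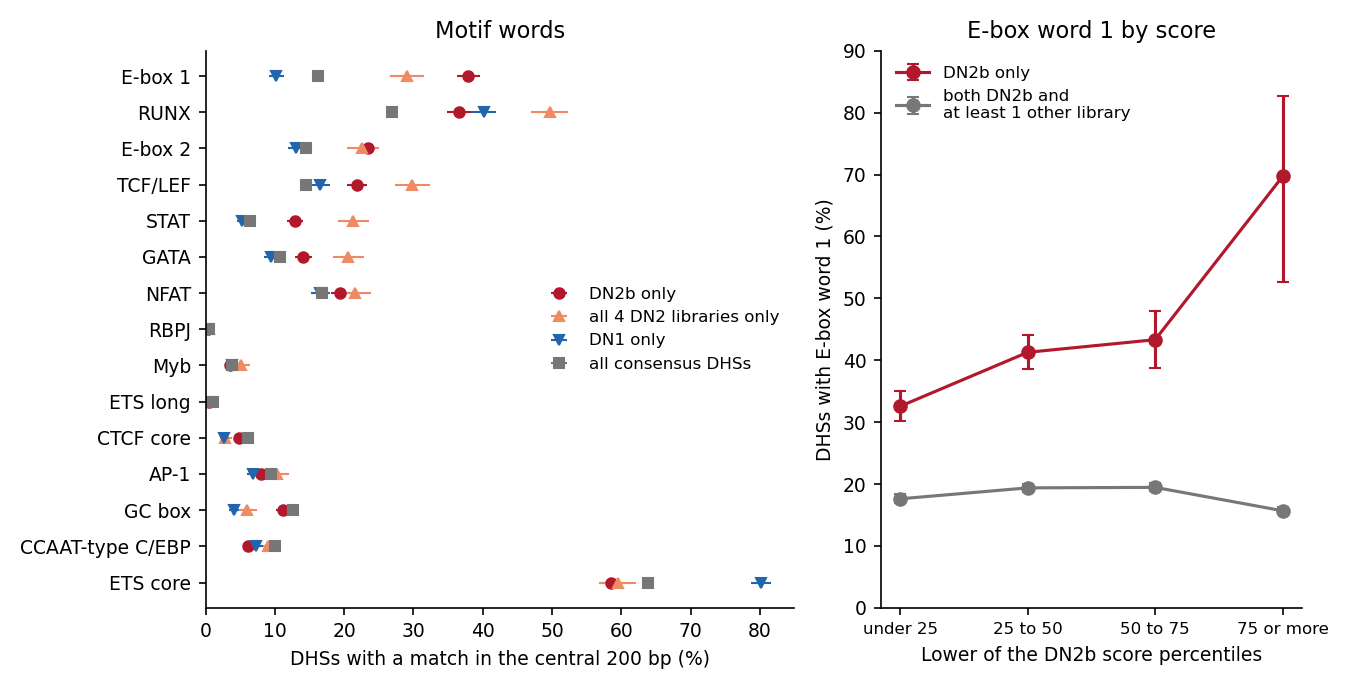
Left, share of DHSs (x axis, %) with each of the 15 motif words in the central 200 bp for DN2b-only DHSs, DHSs of all 4 DN2 libraries only, DHSs of both DN1 libraries only and all consensus DHSs; E-box 1 is CACCTG and E-box 2 is CAGCTG. Right, share with E-box 1 by the lower DN2b score percentile; it stands at 32.6% to 69.7% in DN2b-only DHSs and at 15.7% to 19.5% in DHSs also found in another library, with 95% Wilson intervals as bars in both panels.

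The same word was counted in DHSs outside the rule. Among the 2916 DHSs found in both DN2b libraries and exactly 1 other, CACCTG was in 30.8% of the 1683 whose other library was DN2a, 28.9% of the 197 with LSK, 22.6% of the 990 with DN1 and 15.2% of the 46 with IgG. Among DHSs found in a single library, it was in 20.4% of the 2175 of DN2b replicate 1 and 25.7% of the 22044 of DN2b replicate 2. In single-library DHSs of the other 10 libraries the share ran from 7.46% (IgG replicate 3) to 13.6% (DN2a replicate 1), so the DN2b libraries stood above all of them. No test was made of this difference.

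Lists of the 2 DN2b libraries were unequal, and this bears on every count that follows. DN2b replicate 1 held 61484 peaks and replicate 2 held 111582, the longest of the 12 lists, with 32952 to 96436 in the others. Read depth is unknown, since only peaks were used. Members were 5.32% of the DHSs of replicate 1 and 2.93% of those of replicate 2. Asking for a peak in replicate 2 alone of the DN2b libraries gave 25300 DHSs, and in replicate 1 alone 5422, so the pair of libraries sets the number of members. The labels were checked at the promoters of 10 genes of the DN2 stage. DN2b replicates 1 and 2 had a peak at 8 and 9 of them, DN2a libraries at 6 and 7, DN1 at 4 and 5, LSK at 1 to 2 and IgG at 0. Notch3, a Notch receptor, had none in any library, and Gata3 had one in DN2b replicate 2 only.

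Members ranked low in the list of replicate 1 and about average in that of replicate 2. The score, a whole number with no stated meaning, was used as a percentile within each list. The median percentile of members was 28.2 in replicate 1 and 49.7 in replicate 2, beside 50.8 and 50.95 for all consensus DHSs with a peak in those libraries. The medians were 55.9 and 74.98 for DHSs of all 4 DN2 libraries only and 84.7 and 91.7 for the 13068 DHSs open in all 12 libraries. Under percentile 50 lay 84.7% of members in replicate 1 and 50.6% in replicate 2, against 49.3% and 49.7% of all DHSs there. Members low-scoring in both libraries, under percentile 50, numbered 1586 (50.05%, interval 48.3 to 51.8). Without DN2b replicate 1 or replicate 2, where the rule asks for 1 DN2b library, the share low in the remaining library was 83.7% and 89.5%. With all lists cut to equal length, the share low in both libraries was 81.6%. Those under 50 in at least 1 library numbered 2702 (85.3%), and 467 (14.7%) were at 50 or above in both. Only 33 members reached percentile 75 in both and 3 reached 90. The percentile was higher in replicate 2 for 2955 members (93.2%).

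The edge of the rule was gradual. DHSs found in both DN2b libraries and 1 other had median percentiles of 30.8 and 54.7, close to those of the members, and 57.7% of them had a DN2a library as the other. The nearest peak of another group lay 0.01 kb away for the closest members, with a median of 1.45 kb (quartiles 0.43 and 4.61). It lay within 150 bp for 9.34% of members, within 500 bp for 27.8% and within 10 kb for 89.8%.

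**Figure D2:**
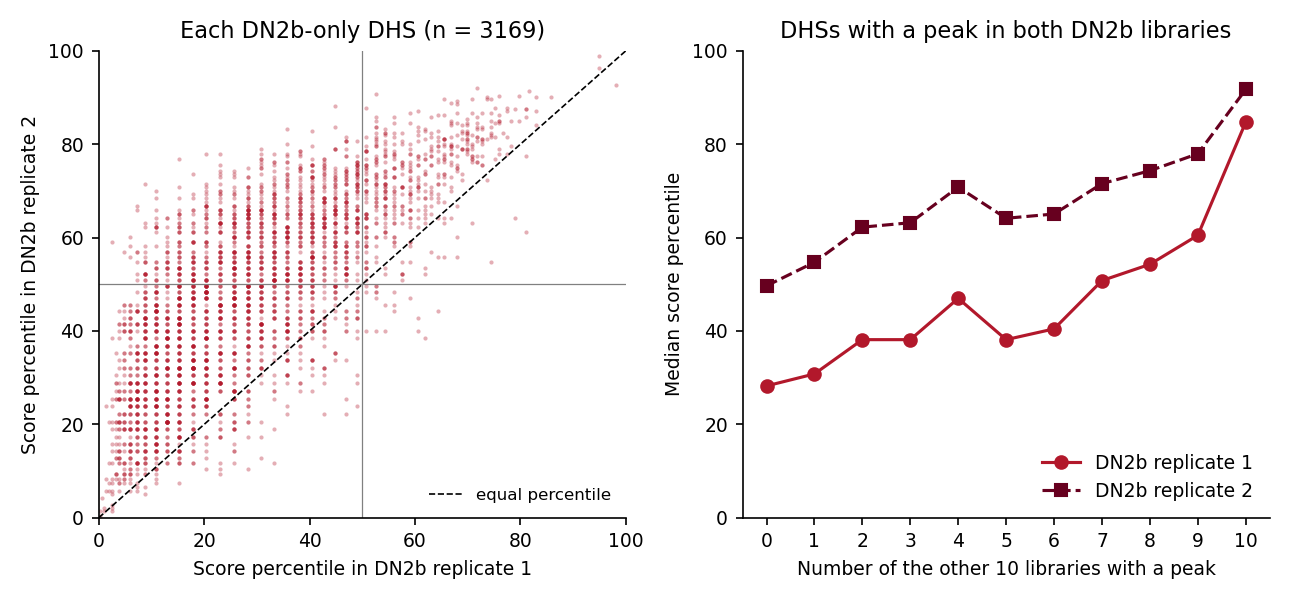
Left, score percentile of each of the 3169 DN2b-only DHSs in DN2b replicate 1 (x axis) and replicate 2 (y axis), with the line of equal percentiles dashed and percentile 50 in grey; 93.2% lie above the line. Right, median percentile in each DN2b library of DHSs with a peak in both DN2b libraries, by how many of the other 10 libraries also had a peak; DN2b-only DHSs (0 others) have the lowest medians, 28.2 and 49.7, and DHSs of all 12 libraries the highest.

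Members were mainly distal, as were all consensus DHSs. The midpoint lay in an intron for 1393 (44.0%), between coding genes for 1175 (37.1%), within 1 kb of a coding start for 428 (13.5%) and in an exon for 173 (5.46%). Over all consensus DHSs it lay in an intron for 40.2%, between coding genes for 38.1% and in an exon for 5.25%. The promoter share was below that of all consensus DHSs (16.5%) and above that of DN1-only (3.92%) and all-DN2-only DHSs (4.80%). Among members with no peak of another library within 500 bp it was 6.56%. In DN2a-only DHSs it was 28.2%, over 110 DHSs. The median distance to a coding start was 19.9 kb (interval 18.4 to 21.6), against 21.3 kb over all DHSs, 37.9 kb for DN1 only and 31.7 kb for all DN2. Members with both percentiles at 50 or more lay closer to starts (median 16.0 kb) than those with both under 50 (27.5 kb). Both distance and promoter share depend on the starts used. Counted from all transcript starts, the median of all members was 9.41 kb and 20.9% lay at promoters.

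Members were spread over all 20 chromosomes. They made up 2.26% of the DHSs of chromosome 9, the highest share, and 1.13% of those of chromosome X, the lowest. Another member lay within 50 kb for 41.2% and within 10 kb for 19.2%. In the 3014 DHSs of both DN1 libraries only, a set of similar size, another of the set lay within 50 kb for 25.7% and within 10 kb for 8.10%. The median width was 170 bp. Repeats took 13.02% of the central window on average, and 14.2% over all DHSs.

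**Figure D3:**
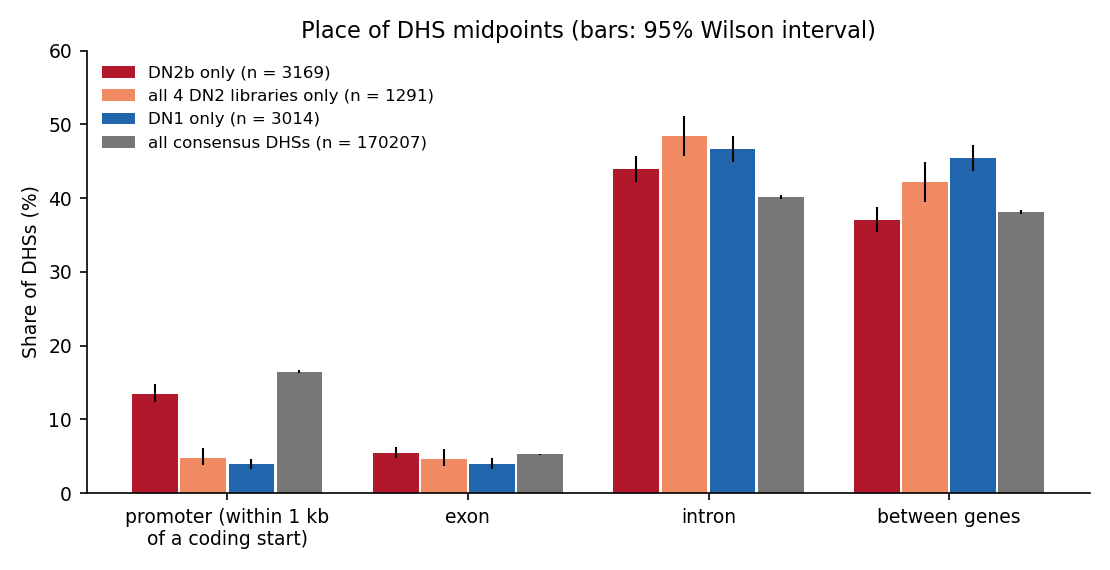
Share of DHSs (y axis, %) whose midpoint lies within 1 kb of a coding start, in an exon, in an intron or between coding genes, for the 4 sets named in the key, with 95% Wilson intervals. DN2b-only DHSs are at promoters in 13.5%, more than the DN1-only (3.92%) and all-DN2-only (4.80%) sets, and in 6.56% where no other library has a peak within 500 bp.

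The highest members by score stood near genes of many kinds. The top member lay 0.273 kb upstream of Csnk1a1 (casein kinase 1 alpha, a regulator of Wnt signalling). It scored 90 and 134 in DN2b replicates 1 and 2, percentiles 94.8 and 98.8, and a peak of another group lay 10 bp away. The second lay 0.331 kb upstream of Stat3 (a cytokine-activated transcription factor; DHS chr11:100939797-100939946), with scores of 90 and 124, and a peak of another group lay 90 bp away. Both promoters had a peak within 1 kb in all 12 libraries, where in the DN2b libraries the member itself counts. Whether these members are extra peaks or shifted calls of the neighbouring site was not tested. The member in Sfi1 (a centriole protein) scored 103 and 112, with 89 other DHSs within 50 kb, the most crowded surroundings of any member. No list of artefact-prone regions was applied.

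Distances to peaks of other groups varied among the next members, from 0.17 kb (Plec) to 13.9 kb (Mtf2). The member 3.95 kb upstream of Junb (an AP-1 subunit) scored 64 and 104 and lay 2.47 kb from the nearest other-group peak. The member 16.7 kb upstream of Mtf2 (a Polycomb-associated protein) scored 59 and 105 and lay 13.9 kb from one. That of Fam107b, in its intron 148 kb past the start, scored 64 and 89, and that beside Gm10282 scored 64 and 96. The A3galt2 member, inside Phc2 (a Polycomb group gene), scored 69 and 104 and lay 0.31 kb from another group's peak. The remaining 4 of the 12 highest were in or near Plec (a cytoskeletal linker), Map3k8 (a MAP kinase kinase kinase), Psmg1 (a proteasome assembly factor) and Ptpn3 (a tyrosine phosphatase). Their scores ran from 61 to 62 in replicate 1 and from 93 to 108 in replicate 2.

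Among the 428 promoter members, 345 belonged to genes whose start had a peak of another group within 1 kb. The 4 highest after Csnk1a1 and Stat3 were at Rps14, Il21r, Sec1 and Hdac7. The Rps14 member (a ribosomal protein gene) scored 49 and 75 and lay 430 bp from another group's peak. The Il21r member (the IL-21 receptor; chr7:125603337-125603486) lay 18 bp upstream of the start, scored 47 and 77, and lay 2.49 kb from another group's peak. The Sec1 member (a fucosyltransferase gene) scored 46 and 89. The Hdac7 member (a histone deacetylase that acts in thymocytes; chr15:97844317-97844486) lay 0.101 kb past the start, scored 45 and 100, and lay 4.77 kb from another group's peak. The promoters of Il21r, Sec1 and Hdac7 had a peak in the DN2b libraries and in no other.

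In all, 83 of 21755 coding promoters (0.382%) were open in both DN2b libraries and had no peak in the other 10. Of the 136 distinct genes of the 6 T lineage lists 8 (5.88%, interval 3.01 to 11.2) were among them, of the 104 other list genes 0, and 75 promoters belonged to genes of no list, Msx1, Pvalb and Wnt9a among these. No test of this was made. The 8 are Cd3d and Cd247 (subunits of the T cell receptor complex), Thy1 and Cd6 (T cell surface proteins), Il2rb (an IL-2 receptor chain), Stat5a, Ikzf3 (an Ikaros family factor) and Hdac7. Gimap4 (a GTPase of lymphocytes), in no list, Msx1, Pvalb and Wnt9a are named after their values were seen. Percentiles in replicates 1 and 2 were 55.9 and 76.8 at Cd3d, 40.5 and 75.6 at Cd247, 57.5 and 69.3 at Thy1 and 63.1 and 65.05 at Gimap4. They were 15.3 and 22.2 at Ikzf3 and 10.8 and 51.0 at Cd6, so some of these promoters passed into the set on low-ranking peaks.

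Nearest genes were numerous and mostly had a single member. The 3169 members had 2369 nearest coding genes, of which 1819 had 1 member and 54 had 4 or more. Dad1 (a subunit of the oligosaccharyltransferase) had 9 of its 108 DHSs in the set, at 131 to 700.2 kb, and it lies beside the T cell receptor alpha locus. Mgst2 (a glutathione transferase) had 8 of 62, Pik3r1 (the p85 subunit of PI3-kinase) 7 of 106 and Cxcr4 (the CXCL12 receptor of progenitors and thymocytes) 6 of 70. Runx1 had 6 of 88, Xxylt1 (a xylosyltransferase) 6 of 47 and B3gnt2 (a glycosyltransferase) 6 of 46. The gene 3110018I06Rik had 6 of 67, at 71.7 to 525 kb. Genes with members are also genes with many DHSs: their median was 14 consensus DHSs, against 6 for the nearest genes of all DHSs.

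Runs of at least 4 members with gaps of at most 25 kb, a measure chosen after the values were seen, numbered 14. The run over Fbxw4 and Gm17018 held 6 members among 25 DHSs, and that beyond Mgst2 5 among 10 in 30.6 kb. Others held 4 or 5 at Ptpn7 (a haematopoietic phosphatase), Junb, Lmna (lamin A), Irf4 (an interferon regulatory factor of lymphocytes) and Tcf7 (which encodes TCF1). At Lmna, 4 of the 5 DHSs within 3.93 kb were members, and at Junb 4 of 10 within 7.89 kb.

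Among the antigen receptor loci, Tcra and Tcrd had the highest share of members, but its interval overlaps those of the other loci. The difference between loci was not tested. From 50 kb before the first gene segment to 50 kb after the last, 16 of 161 DHSs (9.94%, interval 6.21 to 15.5) were members at Tcra and Tcrd and 9 of 234 (3.85%, 2.04 to 7.15) at Igh, beside 1.86% of all DHSs. It was 4 of 96 (4.17%, 1.63 to 10.2) at Tcrb and 3 of 63 (4.76%, 1.63 to 13.1) at Tcrg, intervals that include the share over all DHSs. At Igk it was 0 of 46, which allows a share of up to 6.52% by a limit of 3 counts and 7.71% by the Wilson interval, and so does not set it apart from Tcrb, Tcrg or Igh. DN2b replicate 2 had 149 peaks across Tcra and Tcrd, replicate 1 had 83 and the other libraries 5 to 94, and the part of list length in these shares was not tested. The 3 highest at Tcra and Tcrd stood together 5.13 to 11.9 kb from Trav17 (chr14:53794617-53801586), with percentiles of 52.6 to 67.9 in replicate 1 and 80.1 to 82.4 in replicate 2. One more stood 0.086 kb from the delta joining segment Trdj1 (chr14:54122977-54123126), at 52.6 and 67.7. The 3 at Tcrg were high in both libraries: 63.1 and 70.0 at 0.752 kb from Tcrg-V4, 79.0 and 87.4 at 0.126 kb from it, and 66.8 and 88.9 in Tcrg-C4. At Igh all 9 were under percentile 31 in replicate 1, with the highest at 30.8 and 62.2.

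Genes of the T cell surface and receptor lists had a member near more often than other lists, a difference that was not tested. A member lay within 50 kb of the start of 18.4% of all coding genes, and of 23.3% of coding genes with a promoter peak in any library. Among 22 genes of the T cell surface list, 16 (72.7%) had one, and among 24 of the T cell receptor complex and signalling list, 14 (58.3%). For T lineage transcription factors the count was 14 of 35 (40.0%). The lists of cytokine receptors and STAT5 targets, V(D)J recombination and the Notch pathway stood at 6 of 18 (33.3%), 3 of 12 and 7 of 25 (28.0%). The lists were chosen with earlier results known, and the surroundings of their genes are also richer in DHSs, with medians of 14 to 24 within 50 kb for these 6 lists against 13 for all coding genes. As a share of the DHSs within 50 kb, members were 6.70% (interval 4.61 to 9.64) for the surface list, 4.31% (2.78 to 6.63) for the receptor list and 1.92% over all coding genes. For the factors it was 2.52% (1.58 to 3.996) for the Notch list 1.88% (0.994 to 3.54), for the cytokine list 2.86% (1.61 to 5.06) and for V(D)J recombination 3.07% (1.32 to 6.98). The intervals of these 4 lists include the share over all coding genes.

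**Figure D4:**
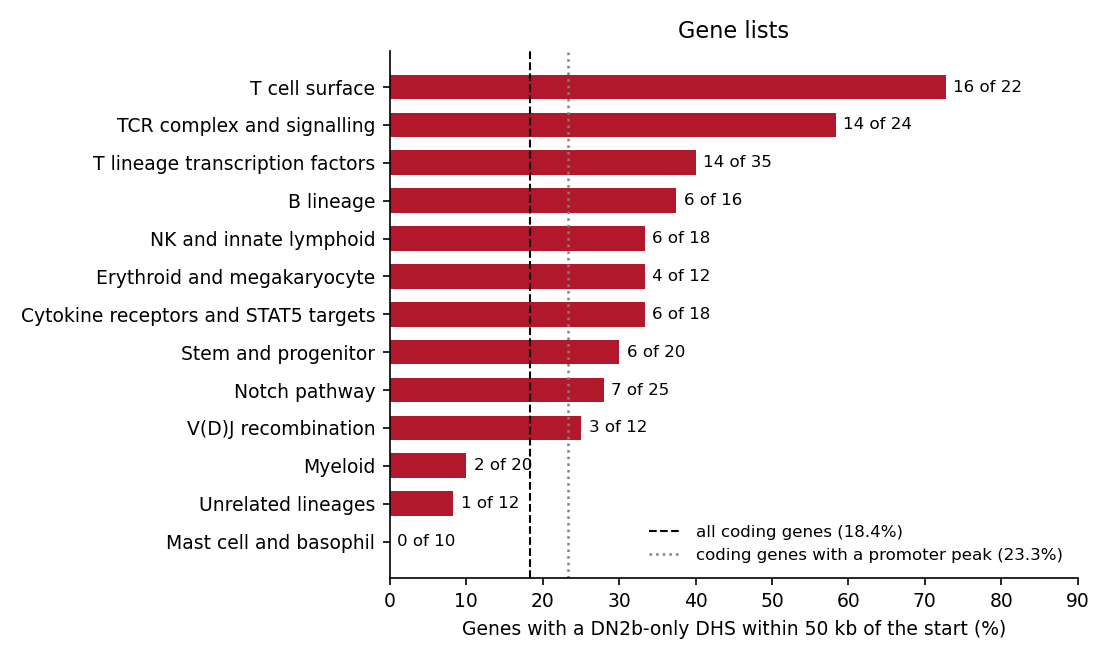
Share of the genes of each list (x axis, %) with at least 1 DN2b-only DHS within 50 kb of the start, with counts beside the bars; the dashed line is the share over all coding genes, 18.4%, and the dotted line that over coding genes with a promoter peak, 23.3%. T cell surface genes stand highest, at 16 of 22, and mast cell and basophil genes lowest, at 0 of 10.

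On the T cell surface list the highest members were those of Thy1, Ccr7 and Ctla4 printed above. The Thy1 member, 21.1 kb upstream of this surface glycoprotein gene, scored 53 and 98 in replicates 1 and 2 (percentiles 75.2 and 87.8) and lay 8.91 kb from any peak of another group. The member 39.0 kb past the start of Ccr7 (a lymph node homing receptor) scored 52 and 95, and lies nearer to Tns4, at 26.8 kb. The member 33.7 kb past the start of Ctla4 (an inhibitory receptor of activated T cells) scored 48 and 79, and the Ctla4 promoter itself had no peak in any library. Itgae (the CD103 integrin chain) had one in its own intron, 5.1 kb past the start, at 44 and 79. Cxcr4 had 4 within 50 kb, the highest 9.28 kb upstream at 40 and 58, and Icos (a costimulatory receptor) 1 at 38 and 76. By percentile all 6 also ranked higher in replicate 2, as 93.2% of all members did. Scores themselves are not comparable between the 2 lists, whose median scores were 33 and 44. Cd6, named after its values were seen, had its best member at its own start, at 16 and 45.

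In the T cell receptor list, the CD3 cluster shared its members. The best, at the Cd3d start (chr9:44981717-44981866), scored 36 and 74 (percentiles 55.9 and 76.8), and the same member lies 1.4 kb from the start of Cd3g and 27.8 kb from that of Cd3e. Prkcq (protein kinase C theta) had a member 1.8 kb past its start at 38 and 56. Vav1 (an exchange factor downstream of the receptor) had 3, the best, at the Trip10 promoter, at 31 and 57. Cd247 and Ptcra, named after their values were seen, had 2 each. That at the Cd247 start scored 28 and 72, and that 4.4 kb upstream of Ptcra (the pre-T cell receptor alpha chain) 18 and 59, at percentile 15.3 in replicate 1.

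Genes of the list of cytokine receptors and STAT5 targets had a member near less often, at 6 of 18, than the surface and receptor lists. This difference was not tested. Il2ra, the CD25 gene whose protein defines the DN2 gates, had 2 within 50 kb, the better 7.6 kb upstream at 50 and 72 (percentiles 72.8 and 75.6) and 0.85 kb from another group's peak. Its promoter had a peak in both DN2a and both DN2b libraries. Stat5a and Stat5b share an intronic member of Stat5a at 28 and 42. Socs3 (a feedback inhibitor of STAT signalling) had 1 at 28 and 55, inside Pgs1. Il2rb had 5, the best in Tmprss6, 43.9 kb past the start, at 23 and 49, and Il2rg (the common gamma chain) 1 at 14 and 26. In the V(D)J recombination list, Dclre1c (Artemis) had an intronic member at 47 and 85, Poll (DNA polymerase lambda) had 2 in the Fbxw4 run, and Rag1 had 2 whose best, at the Traf6 promoter, scored 19 and 48.

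Among T lineage transcription factors the Hdac7 promoter member was the highest. Gata3 had 1 member 18.01 kb past its start, within an annotated Gata3 intron, at 37 and 65 and percentiles 57.5 and 70.8. Zfpm1 (the GATA cofactor FOG1) had 1 at 33 and 53 and Id3 (an inhibitor of E proteins) 1 at 34 and 44. Tcf7 had 3 within 50 kb, the best 21.9 kb past the start at 31 and 55, and Ikzf2 (Helios) 1 at 30 and 62. Bcl11b, the commitment factor, named after its values were seen, had 1 within 50 kb, 40.6 kb past the start at 21 and 40, a low percentile of 23.0 in replicate 1. In the Notch list, Notch2 (43 and 61) and Dtx1 (41 and 85, a Notch target) had intronic members, Myc had 3, the best at 30 and 60, and Hes5 (22 and 39), Heyl (19 and 63) and Itch (18 and 35) had 1 each.

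Lists of other lineages had members too, and by share of genes all 7 stood below the T cell surface and receptor lists. Not all of them stood below the other T lineage lists. B lineage genes stood at 6 of 16, natural killer and innate lymphoid genes at 6 of 18, erythroid and megakaryocyte genes at 4 of 12 and stem and progenitor genes at 6 of 20. The B lineage share was above those of the cytokine (6 of 18), Notch (7 of 25) and V(D)J recombination (3 of 12) lists. The natural killer and erythroid shares equalled that of the cytokine list. Natural killer, erythroid and progenitor shares were above those of the Notch and V(D)J recombination lists. These differences were not tested. Some genes stand in more than 1 list: Rag1 (also V(D)J recombination) and Slamf1 (also T cell surface) have members and are counted here as well, and Il7r, which has none, is on the B lineage and cytokine lists. Myeloid genes stood at 2 of 20, the list of unrelated lineages at 1 of 12 and mast cell and basophil genes at 0 of 10. Around the mast cell genes 0 of 109 DHSs were members, which allows a share of up to 2.75% by a limit of 3 counts and 3.40% by the Wilson interval. Around myeloid genes 3 of 436 were members (0.688%, interval 0.234 to 2.00). Both Wilson intervals include the share over all coding genes, 1.92%. By this measure stem and progenitor genes, at 4.09% (interval 2.45 to 6.75), and B lineage genes, at 4.0% (2.12 to 7.43), stood close to the receptor list at 4.31%. Many of these members belong to neighbouring genes. The best member near Cd79b lies at the Smarcd2 promoter (24 and 48), and that near Elane at the Arid3a promoter (28 and 51). Flt3 and Ly6a, of the progenitor list, had members at 47 and 78 (intron of Flt3) and 40 and 76 (at the Ly6e promoter). Lyl1 had 3 within 50 kb, the best 15.2 kb upstream near Trmt1 at 34 and 75. Near S100a8 the only member (36 and 61) lies in S100a6.

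DHSs of other stages were counted around the same lists. Myeloid genes had a DN1-only DHS within 50 kb for 10 of 20, against 14.2% of all coding genes. The surface list had one for 2 of 22, the receptor list for 7 of 24, the natural killer list for 7 of 18 and the Notch list for 7 of 25. DHSs of all 4 DN2 libraries only lay near 11 of 24 receptor genes, 5 of 22 surface genes and 0 of 20 progenitor genes, against 6.94% of all coding genes. The median number of consensus DHSs within 50 kb was 15.5 (natural killer and progenitor lists) to 22.5 (myeloid list), against 13 for all coding genes. Neighbouring genes can also count the same DHS. These differences between sets were not tested.

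Promoters of the genes nearest to distal members were then read in each library. For the 1900 genes nearest to members over 2.5 kb from a start, the share with a promoter peak was 66.6% in DN2b replicate 1 and 73.8% in replicate 2, and 49.1% and 55.5% over the 19855 other coding genes. The difference was 17.5 and 18.3 points, 17.9 ± 0.572 (SD, n = 2). It was 14.9 and 14.8 points in DN2a, 15.2 and 13.4 in DN1, 13.8 to 14.1 in LSK and 9.42 to 10.6 in IgG, 13.04 ± 2.16 (SD, n = 10) over the other libraries. Both DN2b libraries lay above all other 10, by 4.84 points on average. No p is given, because the members were chosen on the same contrast between the same libraries.

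The rank of those promoters gave no steady direction. Over the 813 of these genes with a promoter peak in all 12 libraries, the median score percentile minus that over 7072 other such genes was -0.436 and 0 in the DN2b libraries. It ran from -2.74 to -0.401 in the other 10, so DN2b replicate 1 lay within the range of the others. The mean difference between DN2b and the others was 0.973, and it turned to -0.427 with lists of equal length and to -0.162 without DN2b replicate 2. Of 2525 distal members, the nearest promoter had a peak in all 12 libraries for 43.3% (40.3% of distal consensus DHSs), in none for 21.98% (25.4%) and in both DN2b libraries alone for 18 members (0.713%, against 0.596%).

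**Figure D5:**
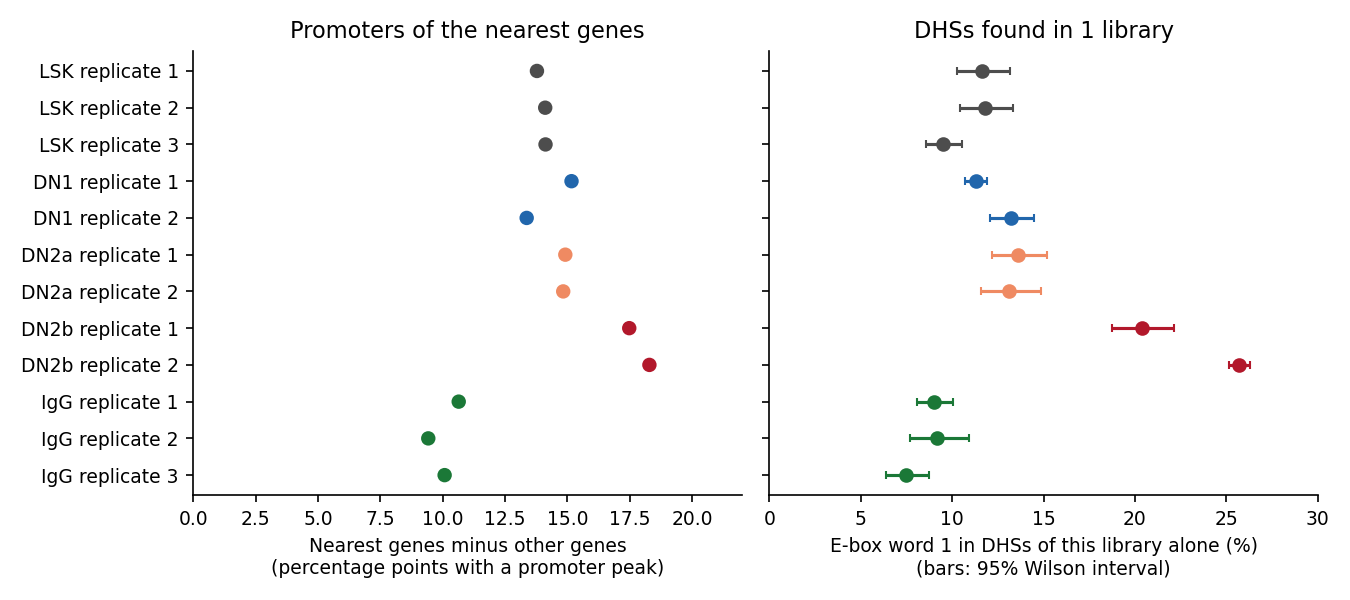
Left, share of the 1900 nearest genes with a promoter peak minus that of the other coding genes (x axis, percentage points) in each of the 12 libraries; the DN2b libraries stand at 17.5 and 18.3 and the others at 9.42 to 15.2. Right, share of DHSs found in that library alone that hold E-box 1, CACCTG (x axis, %; bars are 95% Wilson intervals), 20.4% and 25.7% in the DN2b libraries and 7.46% to 13.6% in the others.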

How the data were processed

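DNase-seq peak lists of 12 mouse libraries were used. According to the study's methods, reads were adapter-trimmed and aligned to mm10 with bwa aln and sampe (BWA 0.7.12 and SAMtools 1.2 in the submitters' processing notes), and peaks were called by hotspot2 at an FDR of 0.05. As deposited by the authors, there is 1 list per library, and each peak is 150 bp with a score, a whole number from 1 to 150 whose meaning is not given in the sources used here. Ranks and comparisons used only its mid-rank percentile within its own list, and scores printed for a member are not comparable between libraries. No reads or depths were used, so depth is unknown.

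Peaks on chromosomes 1 to 19 and X overlapping by at least 1 bp were merged. DHSs were placed by their midpoint on GENCODE M21 protein-coding genes (the study used another release), with a promoter as the 1 kb either side of the start. Motif words were counted in the central 200 bp of the RefSeq GRCm38.p6 sequence. Intervals are 95% Wilson intervals (for medians, from order statistics) and cover counting error only. The members and lists were chosen with earlier results of these data known. A planned exact permutation test of nearest-gene promoters is not given, because the rule used the same contrast.

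Genes were named by rule: the 12 members with the highest lower percentile, the 6 highest at promoters, the 8 genes nearest to most members, and up to 6 genes a list. Some genes that this rule names are not reported here. Other genes are named as chosen after their values were seen, or as hosts and neighbours. Alternatives changed list length, merging, the promoter window, the start sites, the score threshold and each library in turn. Python 3.11.15, numpy 2.4.6, pandas 2.3.3, scipy 1.17.1 and matplotlib 3.10.9 were used, and the scripts were tested on simulated data.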

Additional observations from a re-analysis of the deposited data

How the results depend on the processing

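Under the alternatives, 39 of the values that answer a comparison moved by more than the spread allowed and the rest did not. With every list cut to its 32952 highest peaks, 1280 DHSs met the rule, of which 345 were among the 3169. The low-scoring share was then 81.6%, the promoter difference between DN2b and other libraries 3.98 points, the rank difference -0.427 and the median distance 17.8 kb. With the upper 50% of each list, 1863 DHSs met the rule (466 among the 3169), with 16.1% at promoters, 52.6% low-scoring, differences of 6.25 points and 0.557, and a median of 16.9 kb. Both cuts recompute percentiles within the shorter lists. The promoter share was 11.2% when peaks within 150 bp were merged, 6.56% with no peak of another library within 500 bp (median distance 24.7 kb), 7.07% and 20.3% with promoter windows of 500 bp and 2.5 kb, and 20.9% with all transcript starts (median 9.41 kb). The low-scoring share was 11.5% under percentile 25 in both libraries, 45.4% under 25 in either and 85.3% under 50 in either. With members over 10 kb from the start the rank difference was 0.513. Leaving out 1 library gave 3179 to 25300 DHSs, promoter shares of 12.3% to 16.4%, low-scoring shares of 45.3% to 89.5%, differences of 3.84 to 5.13 points and -0.162 to 0.950, medians of 18.5 to 22.6 kb and 7 to 9 motifs above their share over all DHSs. The CACCTG share stayed above that of all DHSs in all 21 alternatives, from 27.2% without DN2b replicate 1 to 45.9%. These alternatives are not independent, since leaving out any library kept all 3169 members. The cuts to equal length and to the upper 50% kept 10.9% and 14.7% of them. There CACCTG stood at 45.9% against 14.6% and at 39.8% against 17.2% of all DHSs.

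No paired analysis was possible because the labels carry no replicate numbers. With 2 DN2b libraries of unequal list length, and depth unknown, absence of a peak elsewhere does not show closed chromatin, and the number of members cannot be read as the number of sites opened.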
